A study of Homo sapiens with 2 samples.

Results

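A small set of genes lay below 1 FPKM (fragments counted per transcript, scaled by transcript length and by the size of the library) in wild-type (WT) HEK293 cells and at 2 FPKM or more in HEK293 cells lacking PERK (PERK-KO). The set was chosen from the measured values. A row of the expression tables entered it when its WT FPKM was below 1, its PERK-KO FPKM was at least 2 and the lower confidence limit in PERK-KO cells lay above the upper limit in WT cells. Small RNA genes, histone, HOX, protocadherin and ZNF genes, LINC transcripts and 3 further genes were left out by symbol. Of the 25277 rows, 44 met the values, and 36 rows with 35 symbols remained. They made up 0.16% of the 22447 rows left in and 0.391% of the 9202 rows left in that were below 1 FPKM in WT cells. Since these values selected the members, the differences between the genotypes are given as a description and none was tested.

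HEK293 is a human embryonic kidney line, and both samples came from cells at passage 15 to 20. WT cells and PERK-KO cells, the latter made with CRISPR/Cas9 and cloned from single seeded cells, were kept for 12 h in OXPHOS medium, in which galactose and pyruvate replace glucose so that ATP has to come from oxidative phosphorylation. Polyadenylated RNA of 1 sample per genotype was sequenced, so that the line, the clone and the genotype cannot be told apart, and the clone sequenced is not given in the sources used here. In such bulk RNA more cells expressing a gene and more RNA per cell cannot be told apart. The confidence limits given below cover the counting error of a single library and not the variation between cultures or clones.

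PERK, encoded by EIF2AK3, is a kinase in the endoplasmic reticulum membrane that senses misfolded proteins. Together with IRE1 and ATF6 it drives the unfolded protein response: PERK phosphorylates the translation factor eIF2α and thereby favours translation of ATF4, whereas IRE1 splices the XBP1 mRNA and ATF6 is released from the membrane by proteolysis.

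The FPKM of EIF2AK3 itself was 5.61 (limits 5.11 to 6.12) in the WT library and 3.89 (3.44 to 4.34) in the PERK-KO library. Its mRNA was thus lower in the PERK-KO library but still present, and an mRNA level does not show whether protein was made. Of 28 genes of kidney tubules and podocytes, 8 reached 1 FPKM in each library, and 9 were listed at 0 in both, among them UMOD and AQP2. None of the 8 was at least 2-fold higher or lower in PERK-KO cells with separate limits. WT1 had 6.75 FPKM in WT and 6.67 in PERK-KO cells. With separate limits, LHX1 was lower in PERK-KO cells, at 4.65 and 2.88 FPKM. EYA1, at 1.61 and 3.14 FPKM, and PODXL, at 4.30 and 5.76 FPKM, were higher. Below 1 FPKM, AQP1, at 0.355 and 0.912 FPKM, and LRP2, at 0.0972 and 0.187 FPKM, were higher too. Over all 14594 rows with at least 1 FPKM in a library, the median log2 fold change was 0.04 among those above 0 in both. Of these rows, 317 (2.17%) were at least 2-fold higher in PERK-KO cells with separate limits and 158 (1.08%) at least 2-fold lower.

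"Near silent" describes only some of the members. In WT cells 16 members were below 0.5 FPKM and 20 lay between 0.5 and 1, with a median of 0.627 and a maximum of 0.974. In PERK-KO cells the members ranged from 2.01 to 5.21 FPKM, with a median of 2.39. There, 24 members stayed below 3 FPKM and 35 below 5, so the set was low in both libraries compared with genes such as VIM, a mesenchymal intermediate filament gene at 418 and 378 FPKM. The width of the confidence limits corresponded to 20.6 to 261 fragments per member in PERK-KO cells, with a median of 89.1. Among the 34 members above 0 in WT cells the median log2 fold change was 2.15, and over all 36 members, with each WT value raised to at least what 3 fragments are worth, it was 2.17. The same limits with the genotypes exchanged were met by 17 rows (0.0757%), fewer than the 36 in the direction described here.

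**Figure D1:**
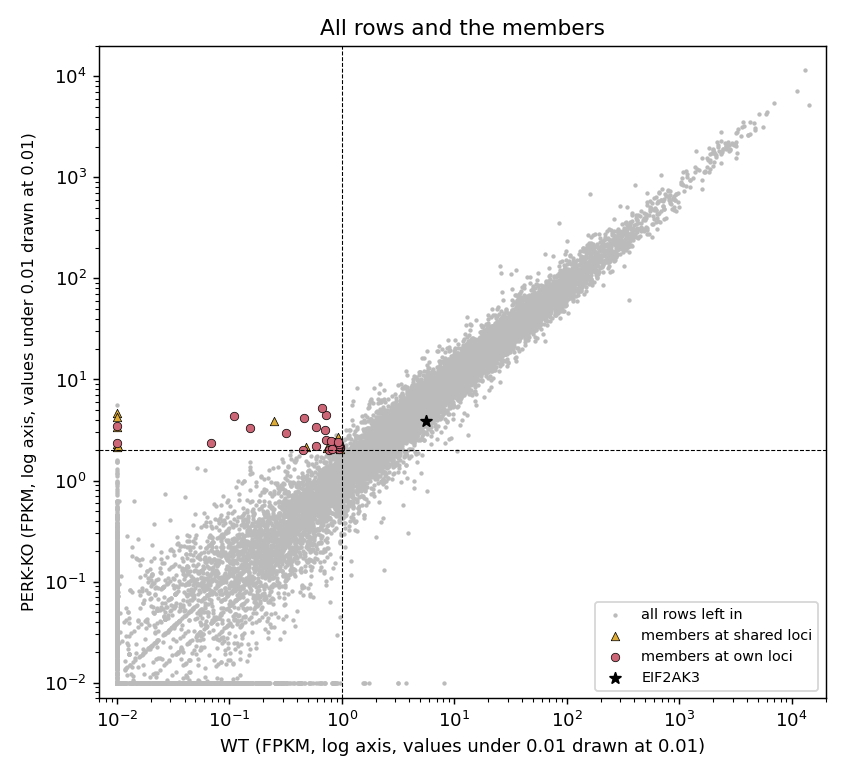
FPKM of each row left in, in WT cells (horizontal) and PERK-KO cells (vertical), both on log axes with values under 0.01 drawn at 0.01. Members at loci of their own are circles, members that overlap another expressed row are triangles and EIF2AK3 is a star. Dashed lines mark 1 FPKM in WT and 2 FPKM in PERK-KO cells. The members fill the low end of the plot between 2.01 and 5.21 FPKM in PERK-KO cells, and many sit close to both lines.

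The rows nearest to the limits had similar values on either side. Rows just inside the WT limit included EFCAB4B at 0.974 and LOC100132287 at 0.963 FPKM, and just outside it, with 2 FPKM or more in PERK-KO cells, were DUSP2 at 1.002, FKBP1A-SDCBP2 at 1.05 and JHDM1D at 1.06 FPKM. Just inside the PERK-KO limit were SH2D2A at 2.01, CADPS2 at 2.01 and NR6A1 at 2.03 FPKM. The nearest rows below that limit were RNF180 at 1.94, HMBOX1 at 1.94 and GOLGA8I at 1.90 FPKM in PERK-KO cells.

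Position in the genome split the members into 2 kinds. Of the 36 rows, 25 lay at loci of their own. The other 11 overlapped, by at least 10% of the shorter locus, another row with at least 1 FPKM. At such loci fragments may have to be divided between overlapping or near-identical transcripts. The overlap is that of whole loci, introns included, and neither shared exons nor strand was examined. The members were spread over 16 chromosomes, with at most 5 on any of them, and no member was the nearest row of another.

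The sequence before the transcription start is shown for 2 members with high PERK-KO levels at loci of their own and for 2 receptor or sensor genes whose window held a motif. INA and SPATC1L had the highest PERK-KO FPKM among members at loci of their own with a promoter in the RefSeq table. RARB and ERN1 were chosen after their values had been seen, and only 30 bases around a motif are given for them, with the motif in capitals. Each stretch lies before 1 start of the RefSeq table. RARB had 4 promoters in the table, and 204 of the 250 bases before the RARB start used here and all 250 before that of ERN1 lay in exons of annotated transcripts. Sequences are from the RefSeq table for GRCh38.p14 and were located by exact match in GRCh37, to which the positions refer.

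INA, chr10:105036645-105036894, plus strand, 250 bases ending just before the RefSeq start:
INA: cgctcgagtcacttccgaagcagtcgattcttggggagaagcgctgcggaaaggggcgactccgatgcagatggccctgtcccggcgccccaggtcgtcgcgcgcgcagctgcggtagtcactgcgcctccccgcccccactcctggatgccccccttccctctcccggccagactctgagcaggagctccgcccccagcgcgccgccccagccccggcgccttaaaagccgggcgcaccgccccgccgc
SPATC1L, chr21:47604391-47604623, minus strand, 233 bases ending 18 bases before the RefSeq start:
SPATC1L: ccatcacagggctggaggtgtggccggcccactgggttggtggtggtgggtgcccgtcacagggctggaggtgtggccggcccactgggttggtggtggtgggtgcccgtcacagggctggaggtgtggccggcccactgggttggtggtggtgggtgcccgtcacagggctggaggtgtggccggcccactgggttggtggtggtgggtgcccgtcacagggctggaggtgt
RARB, chr3:25469695-25469724, plus strand, capitals marking a direct repeat of retinoic acid receptor half-sites that begins 53 bases before the start:
RARB: gggtagGGTTCACCGAAAGTTCActcgcat
ERN1, chr17:62207540-62207569, minus strand, capitals marking the GABP core CCGGAAG that begins 54 bases before the start:
ERN1: ctccgccccgaCCGGAAGaagccgcggcac

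The INA window was rich in CpG, with a CpG content of 0.958 of that expected from its bases over the 300-base window of the table, and the SPATC1L window repeated a unit of 53 bases with 99.5% identity. The exact half-sites and spacing of the RARB repeat, with any letters between the half-sites and on either strand, were searched after the RARB values had been seen. They were found in the promoters of 5 of 27305 genes (0.0183%), of which RARB was the sole member. Since the pattern is that of the RARB repeat itself, the match in RARB was certain beforehand and says nothing about the members. Of the 35 member symbols, 23 had a promoter in the RefSeq table, from 250 bases before to 50 after the start. The 27305 genes are all genes with a promoter there, without the choice by symbol made for the members, so the 2 sets are unlike. A motif counted for a gene when any of its promoters held it. NARR was matched under the symbol RAB34, the gene within which it lies. The promoters of RAB34 therefore stand for NARR in the shares given here and below. On either strand the GABP core CCGGAAG was in 5 of the 23 (21.7%), in the promoters of EFCAB4B (now CRACR2A), ERN1, GALNT13, LOC100630923 and NR6A1, against 12.2% of the 27305 genes. The cAMP response element TGACGTCA was in that of NR6A1 alone (4.35% against 2.25%). The TATA core TATAAA was in those of CRYGD and LCP1 (8.70% against 14.0%).

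No member promoter in the table held the motifs of the unfolded protein response that were searched. These were the ER stress response element ERSE (0.0916% of all genes), its second form ERSE-II (0.0696%), the core TGACGTG (2.40%) and the C/EBP-ATF element TGATGNAA (4.46%), all on either strand. The shares over all genes were small, and the absence says only that these letters are not in this window. TGACGTG and TGACGTCA share their first 6 letters and then differ, so a TGACGTCA site does not itself hold TGACGTG. For genes with several promoters the highest GC and the highest CpG content were taken. The median GC content of the member promoters was 64.0% against 59.7% over all genes. A CpG content of at least 0.6 of that expected was found in 18 of 23 members (78.3%) and in 51.9% of all genes. The 18 include NARR, at 0.679, a value that belongs to RAB34. LCP1, at 0.149, and LOC100132287, at 0.0666, were the lowest in CpG, and GPR157, at 0.984, the highest.

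NEFM and INA, which encode the neurofilament medium chain and α-internexin, subunits of the intermediate filaments of axons, were both more than 7 times higher in the PERK-KO library. NEFM, the highest member in PERK-KO cells, had an FPKM of 0.662 (0.446 to 0.877) in WT cells against 5.21 (4.54 to 5.87) in PERK-KO cells, or a ratio of 7.87. INA had 0.458 (0.285 to 0.631) in WT cells against 4.13 (3.56 to 4.69) in PERK-KO cells, or a ratio of 9.01. The lower PERK-KO limit was 5.18 times the upper WT limit for NEFM and 5.65 times for INA, and the WT values still rested on about 37.6 and 28.0 fragments. The filament partner NEFL, next to NEFM at a distance of 31.9 kb, was far more abundant and lower in PERK-KO cells, at 44.9 FPKM in WT and 33.4 in PERK-KO cells. NEFH, the heavy chain, stayed near 0 at 0.0563 and 0.129 FPKM with overlapping limits.

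Both genes are on a list of neuronal genes. Of its 34 rows, 26 were below 1 FPKM in WT cells, and 10 reached 1 FPKM in at least 1 library. Of these 10, the members INA and NEFM, chosen for that difference, were the rows at least 2-fold higher in PERK-KO cells with separate limits, and none was 2-fold lower, beside 2.17% and 1.08% of all expressed rows. The summed level of the list was 480 FPKM in WT and 384 in PERK-KO cells, most of it from UCHL1, a neuronal ubiquitin hydrolase at 381 and 291 FPKM. GAP43 was also lower in PERK-KO cells with separate limits, at 4.14 (3.38 to 4.91) and 2.67 (2.01 to 3.32) FPKM. PRPH had 1.97 and 1.28 FPKM with overlapping limits. Among rows below 1 FPKM in both libraries, CHGA, a gene of secretory granules, was at 0.0269 (0 to 0.0807) and 0.737 (0.434 to 1.04) FPKM, and ELAVL3, a neuronal RNA-binding protein gene, at 0.256 (0.145 to 0.366) and 0.599 (0.419 to 0.780) FPKM, both higher in PERK-KO cells with separate limits. The defining neuronal genes ELAVL4, GRIA1 and SLC17A6 were listed at 0 in both libraries, while the nuclear antigen gene RBFOX3 had 0.520 and 0.525 FPKM.

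LCP1 and CDH15 are genes of other cell lineages that organise actin and adhesion. LCP1 encodes plastin 2, an actin-bundling protein of leukocytes, and lies at chr13:46700058-46756459 on the minus strand with 16 exons. It had 0.152 (0.0603 to 0.243) FPKM in WT cells against 3.31 (2.85 to 3.77) in PERK-KO cells. The ratio was 21.8, with about 11.0 fragments behind the WT value and 205 behind the PERK-KO value, and the limits were 11.7 times apart. The related plastin genes PLS1, at 3.86 and 4.34 FPKM, and PLS3, at 434 and 427 FPKM, had overlapping limits. Of 24 blood cell genes, 8 reached 1 FPKM in each library and none of these 8 was 2-fold higher or lower with separate limits, beside 2.17% and 1.08% of all expressed rows, with summed levels over the list of 31.9 FPKM in WT and 27.6 in PERK-KO cells. Below 1 FPKM, the monocyte gene CD14 was listed at 0 in WT cells and at 0.469 (0.146 to 0.793) FPKM in PERK-KO cells. The pan-leukocyte gene PTPRC was at 0.108 and 0.180 FPKM and the myeloid factor gene SPI1 at 0.288 and 0.235 FPKM.

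CDH15 (chr16:89238163-89261900, plus strand, 14 exons), encoding M-cadherin of skeletal muscle precursors, had 0.317 (0.163 to 0.471) FPKM in WT cells against 2.96 (2.46 to 3.46) in PERK-KO cells, or a ratio of 9.34. Its neighbour SLC22A31, a solute carrier gene 269 bases away, was higher too, with 2.15 (1.64 to 2.67) FPKM in WT and 7.35 (6.33 to 8.37) in PERK-KO cells, or a ratio of 3.42. Of the muscle transcription factor genes, MYOD1 had 0.525 and 0.141 FPKM and MYOG 0.270 and 0.340 FPKM, both with overlapping limits. None of the 21 expressed muscle contractile rows was 2-fold higher in PERK-KO cells with separate limits and 2 were 2-fold lower, namely ACTA2 and TAGLN (2.17% and 1.08% of all expressed rows). By less than 2-fold, ACTC1, MYH9, MYH10 and MYH14 were higher in PERK-KO cells with separate limits, and MYL6, TPM1 and TPM3 lower. Below 1 FPKM, TTN was higher with separate limits, at 0.139 and 0.224 FPKM. Other cadherins went different ways: CDH2, the most abundant, had 23.5 and 21.3 FPKM, CDH3 had 2.68 and 3.60 FPKM, and CDH4 had 2.85 and 1.17 FPKM.

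COL14A1, encoding a collagen that decorates fibrils, rested on more fragments than any other member, 118 in WT and 261 in PERK-KO cells. It had 0.933 (0.761 to 1.10) FPKM in WT and 2.41 (2.11 to 2.71) in PERK-KO cells, or a ratio of 2.58. Of 20 expressed collagen chain rows, 2 were 2-fold higher with separate limits, of which COL14A1 was chosen for it, and 2 were 2-fold lower, beside 2.17% and 1.08% of all expressed rows. Among collagens of the same class, COL12A1 had 2.29 and 2.30 FPKM and COL9A3 had 7.16 and 4.31 FPKM.

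The set held 2 G protein-coupled receptors. LPAR3, a receptor for lysophosphatidic acid, had 0.587 (0.310 to 0.864) FPKM in WT and 3.35 (2.64 to 4.06) in PERK-KO cells, or a ratio of 5.71. GPR157, an orphan receptor, had 0.833 (0.417 to 1.25) FPKM in WT and 2.38 (1.62 to 3.14) in PERK-KO cells, or a ratio of 2.85. Receptors for the same lipid differed among themselves: LPAR1 had 7.72 and 11.2 FPKM, LPAR5 0.477 and 1.07 FPKM, and LPAR6 0.444 and 0.0894 FPKM. Over the whole receptor list, 82 of 608 rows reached 1 FPKM in a library, 5 of them at least 2-fold higher in PERK-KO cells with separate limits and 1 at least 2-fold lower, beside 2.17% and 1.08% of all expressed rows. The 5 include LPAR3 and GPR157, which were chosen for that difference.

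TMC4, a transmembrane channel-like gene, had 0.942 (0.641 to 1.24) FPKM in WT and 2.18 (1.69 to 2.66) in PERK-KO cells, or a ratio of 2.31. Its relatives TMC5, at 1.36 and 1.45 FPKM, TMC6, at 4.67 and 4.34 FPKM, and TMC7, at 2.37 and 2.57 FPKM, had overlapping limits.

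Genes for vesicle traffic and regulated exocytosis were also represented. DOC2B, a calcium sensor for vesicle fusion, had 0.796 (0.371 to 1.22) FPKM in WT and 2.47 (1.66 to 3.27) in PERK-KO cells. CADPS2, which primes dense-core vesicles, had 0.769 (0.601 to 0.937) FPKM in WT and 2.01 (1.72 to 2.31) in PERK-KO cells. RAB39A, a small GTPase of endosomal and phagosomal traffic, had 0.593 (0.319 to 0.866) FPKM in WT and 2.20 (1.63 to 2.77) in PERK-KO cells. Their ratios were 3.10, 2.62 and 3.71, respectively. Of 9 expressed genes of the exocytosis core, UNC13B, a priming factor at 5.46 and 8.58 FPKM, had its PERK-KO limits above the WT limits, as had 26.1% of all expressed rows, and the other 8 had overlapping limits. DOC2A, the close relative of DOC2B, was lower in PERK-KO cells, at 21.3 and 16.2 FPKM, whereas RAB39B, at 0.408 (0.250 to 0.565) and 1.09 (0.806 to 1.37) FPKM, was higher with separate limits.

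RARB and NR6A1 encode nuclear receptors. RARB, a retinoic acid receptor whose promoter holds the direct repeat shown above, had 0.951 (0.675 to 1.23) FPKM in WT and 2.31 (1.86 to 2.77) in PERK-KO cells, or a ratio of 2.43. RARA had 6.49 and 9.88 FPKM, and RARG 4.55 and 3.72 FPKM. NR6A1, the germ cell nuclear factor, had 0.816 (0.496 to 1.14) FPKM in WT and 2.03 (1.49 to 2.57) in PERK-KO cells, or a ratio of 2.49.

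ERN1, which encodes the sensor IRE1α, was the sole member with a core role in the unfolded protein response. The gene lies at chr17:62120390-62207502 on the minus strand with 22 exons. It had 0.951 (0.726 to 1.18) FPKM in WT and 2.07 (1.72 to 2.42) in PERK-KO cells, or a ratio of 2.17. ERN2, the epithelial form, had 1.67 and 1.39 FPKM with overlapping limits, ATF6 had 7.92 and 11.1 FPKM, and ATF6B had 32.7 and 43.0 FPKM. Of 21 expressed chaperone and ER-associated degradation genes, 14 were at least 2-fold higher in PERK-KO cells with separate limits and none 2-fold lower, and of 23 expressed ATF4 and CHOP targets 6 were higher and none lower, beside 2.17% higher and 1.08% lower of all expressed rows. All but 1 row of each of these lists had 1 FPKM or more in WT cells and so could not be a member.

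CTPS2 showed the highest ratio among members with a fold. It encodes a CTP synthase, which makes cytidine triphosphate from UTP, at chrX:16606122-16731059 on the minus strand with 19 exons. It had 0.0682 (0 to 0.144) FPKM in WT and 2.33 (1.94 to 2.72) in PERK-KO cells. The ratio was 34.2, but only about 3.24 fragments stood behind the WT value, and the lower PERK-KO limit was 13.5 times the upper WT limit. CTPS1, the main form, had 48.0 and 56.4 FPKM, so CTPS2 added little to the summed level of both, which was 48.0 in WT and 58.7 in PERK-KO cells. DTX3, a ubiquitin ligase of the Deltex family, had 0.705 (0.427 to 0.982) FPKM in WT and 3.19 (2.56 to 3.82) in PERK-KO cells, or a ratio of 4.52, while DTX2, DTX3L and DTX4 had overlapping limits.

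PPP1R14A and CRYGD were listed at 0 in WT cells, with both limits at 0, and no fold is given for them. With an upper WT limit of 0, any lower PERK-KO limit above 0 met the requirement on limits. In WT cells 3 fragments would be worth 0.288 FPKM for PPP1R14A and 0.294 FPKM for CRYGD. PPP1R14A, which encodes CPI-17, an inhibitor of myosin phosphatase in smooth muscle, had 3.43 (2.21 to 4.66) FPKM in PERK-KO cells. Its neighbour SPINT2, a protease inhibitor gene 7.87 kb away, had 0.347 (0.109 to 0.584) FPKM in WT and 1.80 (1.28 to 2.32) in PERK-KO cells, or a ratio of 5.20. The related genes PPP1R14B, at 643 and 568 FPKM, and PPP1R14C, at 22.9 and 16.3 FPKM, were lower in PERK-KO cells. CRYGD, a crystallin gene of the lens, had 2.35 (1.33 to 3.38) FPKM in PERK-KO cells from about 21.0 fragments, and its neighbour CRYGC was listed at 0 in both libraries. LOC389906 had 0.109 (0 to 0.252) FPKM in WT and 4.38 (3.59 to 5.17) in PERK-KO cells. About 2.34 fragments stood behind its WT value, under the 3 set as the least for a fold, and the limits were 14.2 times apart.

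The remaining members at their own loci had diverse roles. SPATC1L, a testis gene of the speriolin type, had 0.720 (0.319 to 1.12) FPKM in WT and 4.46 (3.41 to 5.52) in PERK-KO cells, or a ratio of 6.20. IL18BP, a secreted inhibitor of interleukin 18, had 0.728 (0.389 to 1.07) FPKM in WT and 2.52 (1.88 to 3.15) in PERK-KO cells. SH2D2A, a T cell adaptor, had 0.456 (0.154 to 0.759) FPKM in WT and 2.01 (1.39 to 2.63) in PERK-KO cells, with about 9.10 fragments behind the WT value. EFCAB4B, a calcium sensor of store-operated entry, had 0.974 (0.690 to 1.26) FPKM in WT and 2.12 (1.67 to 2.56) in PERK-KO cells, the smallest ratio at these loci, 2.17. Its relative EFCAB4A went the other way, from 5.11 FPKM in WT to 2.55 in PERK-KO cells. LOC100499227, a transcript of unstated function, had 0.831 (0.415 to 1.25) FPKM in WT and 2.43 (1.66 to 3.20) in PERK-KO cells.

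**Figure D2:**
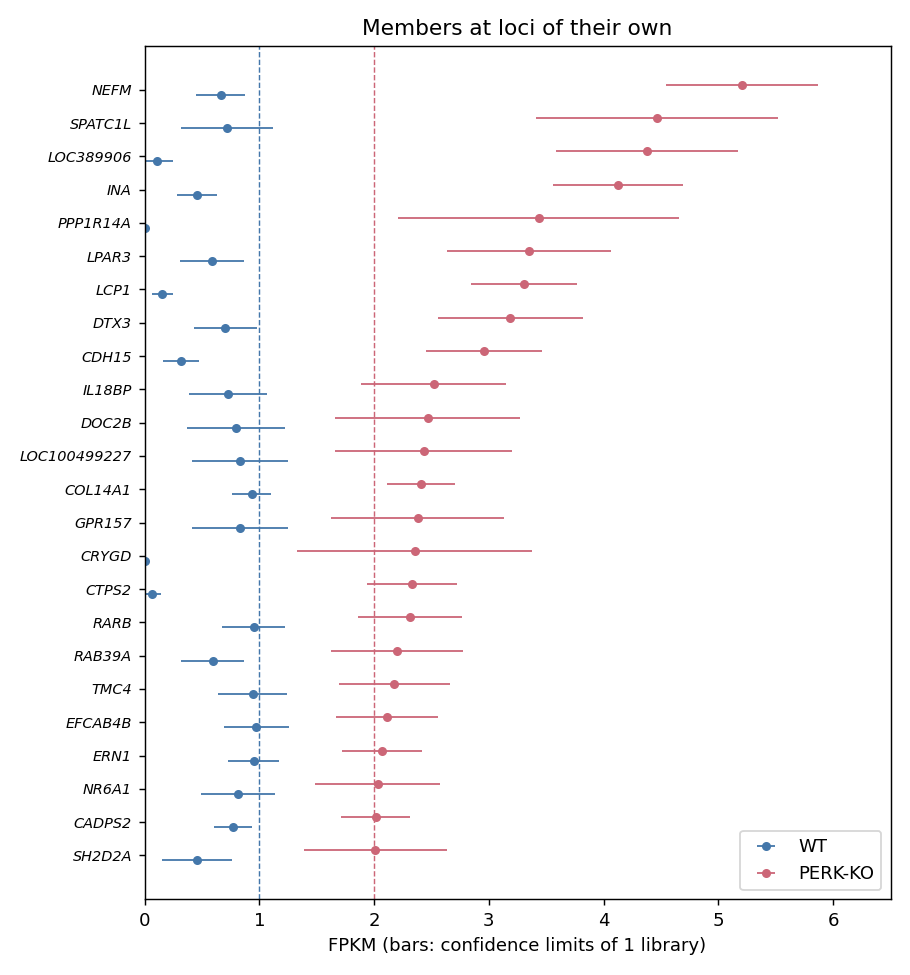
FPKM of 24 of the 25 members at loci of their own in WT and PERK-KO cells, with bars for the confidence limits of the single library of each genotype. Dashed lines mark the limits of 1 and 2 FPKM that chose the members, so the separation follows from the choice. NEFM, SPATC1L, LOC389906 and INA are above 4 FPKM in PERK-KO cells, and the lowest members lie close to 2.

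Over the 22 members at loci of their own that have a fold, the median ratio was 3.28, with a range from 2.17 to 34.2. In 7 of them it was at least 5, in 5 between 3 and 5, and in 10 below 3. The families of the members were set together after the values had been seen. Of 64 expressed rows of relatives, 23 (35.9%) had PERK-KO limits above the WT limits and 14 (21.9%) below, beside 26.1% and 18.7% of all expressed rows, and 27 had overlapping limits. Their median ratio was 1.02. Of these rows, 3 (4.69%) were at least 2-fold higher with separate limits, beside 2.17% of all expressed rows, namely LPAR5, RAB39B and RGPD2. These shares do not rest on independent genes. The 23 rows include RANBP2 and most expressed RGPD rows, which are near-identical copies, with RGPD2 and RGPD5 listed more than once. The 14 include the targeted gene EIF2AK3. Some relatives, such as STIM1 and IL18, share a pathway with a member rather than a gene family.

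**Figure D3:**
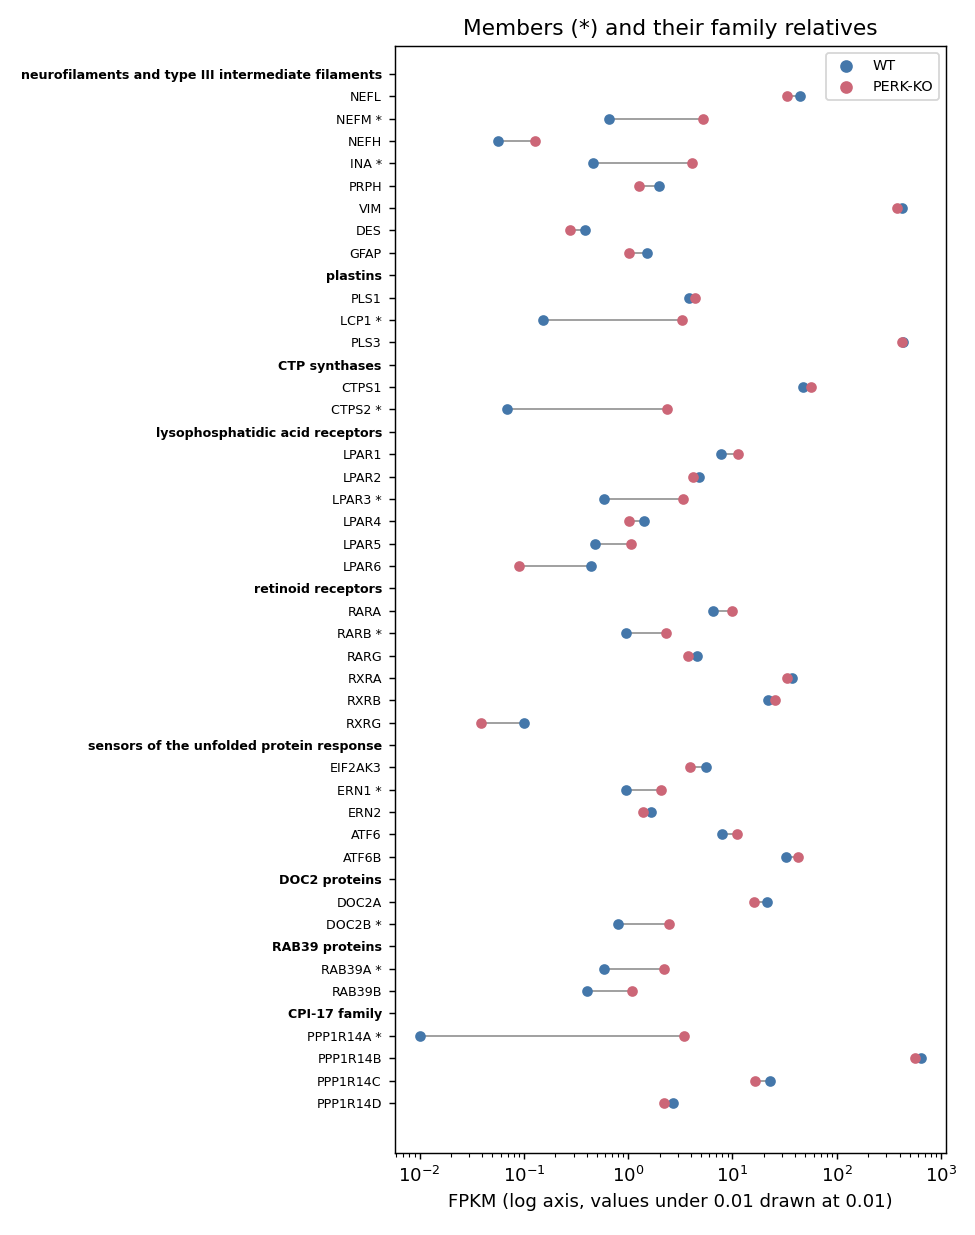
FPKM in WT and PERK-KO cells, on a log axis with values under 0.01 drawn at 0.01, for members (asterisks) and relatives in 9 gene families. Lines join the values of a gene. In the plastin and CTP synthase families the member is the least abundant gene in both libraries, beside abundant relatives, PLS3 at 434 and 427 FPKM and CTPS1 at 48.0 and 56.4 FPKM.

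Of the 71 nearest rows with another symbol, 47 reached 1 FPKM in a library, and these had a median ratio of 1.01, with 24 higher and 23 lower in PERK-KO cells. The neighbours at least 2-fold higher with separate limits were 2, SLC22A31 and SPINT2 (2.17% over all expressed rows), and 0 were 2-fold lower. None of the 71 was itself a member.

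The 11 members at shared loci need to be read with the rows they overlap. TMX2-CTNND1, TMEM110-MUSTN1 and SYS1-DBNDD2 are read-through transcripts, which run from one gene into the next. TMX2-CTNND1 was listed near 0 in WT cells (upper limit 0.0170) and at 4.61 (3.99 to 5.23) FPKM in PERK-KO cells. The genes it spans were much more abundant, TMX2 at 84.0 and 77.0 FPKM and CTNND1 at 37.8 and 42.6 FPKM. The sum of the read-through and CTNND1 differed by a ratio of 1.25, and the sum with TMX2 by 0.971. TMEM110-MUSTN1 was near 0 in WT cells (upper limit 0.0792) and at 4.23 (3.11 to 5.35) FPKM in PERK-KO cells, and its sum with TMEM110, at 7.63 and 8.97 FPKM, gave a ratio of 1.73. SYS1-DBNDD2 was near 0 in WT cells (upper limit 0.0867) and at 2.16 (1.22 to 3.10) FPKM in PERK-KO cells, and its sum with SYS1 gave 1.23 and with DBNDD2 0.795.

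NARR lies within RAB34, a Golgi GTPase gene. It was listed near 0 in WT cells (upper limit 0.156) and at 3.42 (1.91 to 4.92) FPKM in PERK-KO cells, while RAB34 was at 102 and 62.4 FPKM and their sum had a ratio of 0.648. LOC100093631 had 2 rows on chromosome 7, each overlapping a GTF2IP1 row, which is a pseudogene copy of a general transcription factor. The LOC100093631 rows had upper limits of 0.0499 and 0.0511 FPKM in WT cells and levels of 2.28 (1.72 to 2.84) and 2.19 (1.64 to 2.74) FPKM in PERK-KO cells, and the sums with the GTF2IP1 rows differed by ratios of only 1.01 and 1.01. For NARR, these rows and the 3 read-through transcripts the difference in the member was thus much larger than the difference in the locus as a whole, and no fold is given.

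The other 5 shared members had a WT value above the level of 3 fragments. LOC100630923 had 0.250 (0.0595 to 0.440) FPKM in WT and 3.88 (3.14 to 4.62) in PERK-KO cells, or a ratio of 15.5. Its locus runs from the start of LOC100289561 to the end of PRKRIP1. LOC100289561 had 6.89 and 4.55 FPKM, and PRKRIP1 15.7 and 10.3 FPKM. The sum of LOC100630923 with LOC100289561 gave a ratio of 1.18, and that with PRKRIP1 gave 0.891. ZBED6, a transposon-derived transcription factor gene inside ZC3H11A, had 0.922 (0.662 to 1.18) FPKM in WT and 2.71 (2.23 to 3.18) in PERK-KO cells, or a ratio of 2.93, against 1.31 for ZC3H11A. RGPD8, of a family of near-identical RANBP2 copies, had 0.741 (0.544 to 0.938) FPKM in WT and 2.12 (1.78 to 2.45) in PERK-KO cells, or a ratio of 2.86, against 0.934 for RGPD5 at the same locus. GALNT13, a glycosyltransferase that starts mucin-type glycans, had 0.481 (0.348 to 0.613) FPKM in WT and 2.15 (1.85 to 2.45) in PERK-KO cells, or a ratio of 4.48, while LOC100144595 at the end of its locus had 4.37 and 3.35 FPKM. LOC100132287 had 0.963 (0.664 to 1.26) FPKM in WT and 2.07 (1.61 to 2.53) in PERK-KO cells, and its sum with LOC100133331 gave a ratio of 1.24.

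**Figure D4:**
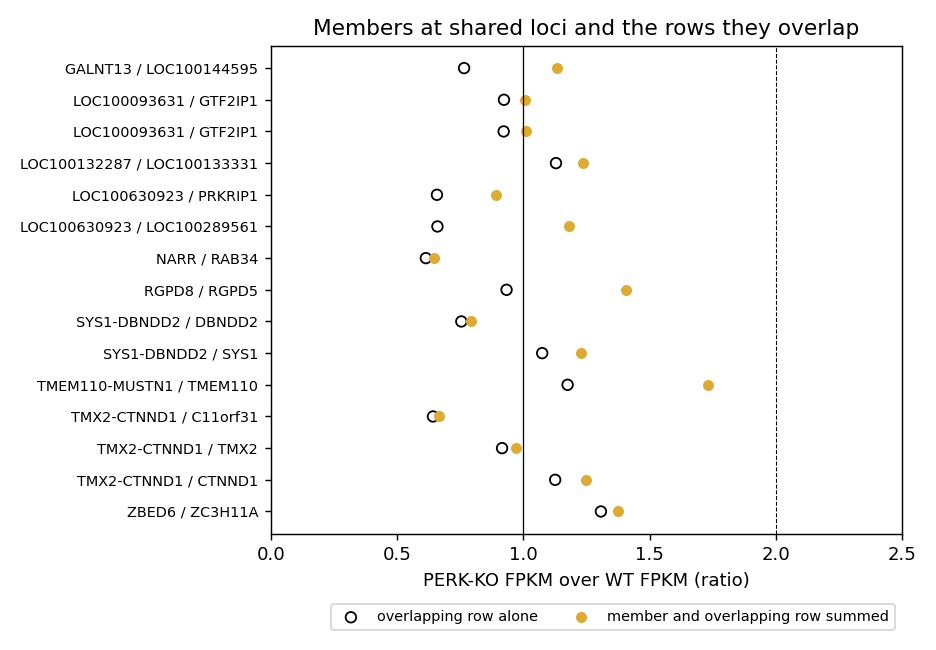
Ratio of PERK-KO to WT FPKM for the rows that the 11 members at shared loci overlap, alone (open circles) and summed with the member (filled circles), 1 line per pair. The solid line marks equal levels and the dashed line a 2-fold difference. Every sum drawn lies between 0.648 and 1.73, below the dashed line.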

How the data were processed

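Polyadenylated RNA of WT and PERK-KO HEK293 cells (1 sample each) was sequenced. The authors mapped reads with TopHat2 2.0.13 to hg19 and computed FPKM with Cufflinks 2.2.1, per the submitters' processing notes, and deposited 1 table of FPKM with confidence limits per sample. Read totals are not in these tables. Limits were read as 2 SE of a fragment count, which gives fragments as 4 times the squared quotient of FPKM and half-width, and over 447 rows with whole numbers (within 0.02) the FPKM of a fragment in PERK-KO cells was 1.14 times that in WT cells. A fold is given where WT had at least 3 such fragments. With 1 sample per genotype no test was made. Members and lists were chosen with earlier results of these data known, and families and the RARB motif after values had been seen. Named genes were EIF2AK3, the 15 members highest in PERK-KO cells, the 10 with the widest ratio of limits, members on a list, members with a neighbour that differed and the 3 rows on each side of both limits, and the remaining members and their relatives were added after their values were seen. Positions are GRCh37, with all 24 chromosomes fitting and 29 of 36 rows matched to GENCODE, all protein coding. NARR was matched there as RAB34. Alternatives were other limits, scalings, pseudocounts and rows. Python 3.11.15, numpy 2.4.6, pandas 2.3.3 and matplotlib 3.10.9 were used, and the rule was tested on simulated counts. 1 member is not reported by name here.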

Additional observations from a re-analysis of the deposited data

How the results depend on the processing

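The number of members followed the limits chosen. It was 16 with WT below 0.5 FPKM, 9 below 0.1 and 204 below 2, and 150 with PERK-KO at 1 FPKM or more and 1 at 5 or more. It stayed within 1.5 times of 36 without the requirement on limits (40), with rows of a symbol summed (37), with no symbol left out (44), on the main chromosomes (36) and after rescaling to the median or the 75th percentile (33 each). At own loci alone, an alternative chosen after seeing the data, it was 25. The median log2 fold change of 2.15 was 1.99 and 1.19 with pseudocounts of 0.1 and 1, 2.12 after rescaling, 1.63 for members with a WT FPKM of at least 0.1 and 1.79 at own loci. A pseudocount of 1 took 12 of 27 single-gene values outside their limits and left 15 within. A motif other than the RARB repeat was in 7 of 23 member promoters (30.4%, beside 31.6% of all genes) and in 7 (beside 28.5%) with the 250 bases before the start alone. No paired analysis was possible because there was 1 sample per genotype, and no sample could be left out for the same reason.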

Other observations

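Several genes with the same pattern lay below the PERK-KO limit of 2 FPKM. These were chosen after their values had been seen, from those with the widest ratio of limits among rows between 1 and 2 FPKM in PERK-KO cells, and are given as values. BSN, encoding the presynaptic scaffold bassoon, had 0.324 (0.260 to 0.388) FPKM in WT and 1.22 (1.09 to 1.35) in PERK-KO cells and rested on about 103 and 336 fragments, in PERK-KO cells more than any member. CELSR3, an adhesion receptor that guides axons, had 0.375 (0.293 to 0.457) FPKM in WT and 1.55 (1.36 to 1.73) in PERK-KO cells, or a ratio of 4.13. FMOD, a small matrix proteoglycan gene, had 0.160 (0.0534 to 0.267) FPKM in WT and 1.20 (0.882 to 1.51) in PERK-KO cells, or a ratio of 7.48. TMEM47, a junction protein gene, had 0.296 (0.172 to 0.420) FPKM in WT and 1.61 (1.31 to 1.92) in PERK-KO cells, or a ratio of 5.46. GUCY1A3, encoding a subunit of soluble guanylate cyclase, had 0.298 (0.182 to 0.414) FPKM in WT and 1.52 (1.16 to 1.87) in PERK-KO cells, or a ratio of 5.08. RAB3C, a GTPase of secretory vesicles, had 0.0614 (0 to 0.184) FPKM in WT cells, from about a single fragment, and 1.26 (0.666 to 1.86) in PERK-KO cells, so no fold is given.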
